A study of Rattus norvegicus with 12 samples.

Results

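Fast and slow neurotransmitter receptors were represented by 78 of the 22523 probes on the array. They were all the probes whose platform gene symbol begins with the stem of a glutamate, GABA, glycine, acetylcholine or serotonin receptor gene, by a rule that reads symbols and no measured value. The 78 probes carried 77 symbols of the 13337 that the platform annotation gives. Grik5 had 2 probes, and Grid2ip, which codes for a protein that binds the delta glutamate receptor and is not a receptor, was drawn in by its name, which leaves 76 receptor genes. Of the probes, 52 measured subunits of ion channels and 25 measured receptors that couple to G proteins. Male Wistar rats on postnatal day 70 gave pituitary or hypothalamus RNA, of which 250 ng per sample was labelled and hybridised to Illumina RatRef-12 BeadChips. The mothers had received the dioxin TCDD (2,3,7,8-tetrachlorodibenzo-p-dioxin, a ligand of the aryl hydrocarbon receptor) or vehicle by mouth on gestation day 15, so the pups were exposed through the dam and not dosed themselves. The dose is recorded as 1 mg per kg, dissolved in corn oil, in the protocols of the samples but as 1 µg per kg in the text of the series, and no value below is tied to it. There were 4 groups of 3 arrays: vehicle pituitary, TCDD pituitary, vehicle hypothalamus and TCDD hypothalamus. Of the 10 codes in the sample titles, 2 occur in both tissues, but whether a code stands for 1 animal or for littermates is not recorded, so the tests measure the spread between arrays, which may be partly technical.

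Ligand-gated channels act within milliseconds: AMPA, kainate and NMDA receptors for glutamate, nicotinic receptors for acetylcholine and the Htr3 receptor for serotonin let cations in, while GABA-A and glycine receptors pass chloride. Metabotropic glutamate, GABA-B, muscarinic and most serotonin receptors act more slowly through G proteins. In the hypothalamus both kinds carry synaptic signals between neurons that control hormone release, and the endocrine cells of the pituitary are themselves excitable and bear receptors for several of these transmitters.

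The pituitary arrays detected 9934 to 10371 probes (detection p under 0.05) and the hypothalamus arrays 10852 to 11438, with median signals between 108.1 and 123.6. All 9 pituitary endocrine markers with a probe were called higher in vehicle pituitary, and 10 of 11 hypothalamic neuropeptide markers and 13 of 14 general neuronal markers were called higher in vehicle hypothalamus, as the labels state. The 9 endocrine markers were uneven among the hypothalamus arrays, with summed intensities of 3064 to 8306 with vehicle and 5015 to 13559 with TCDD. In vehicle pituitary their sums were 100879 to 115345. Some region markers were uneven among the hypothalamus arrays as well. The mean log2 intensity of 9 markers of striatum, septum and cortex was 10.42 on vehicle array 1 against 8.90 to 9.20 on the other 5. The receptor values on these arrays are given beside the TCDD comparison.

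The vehicle hypothalamus arrays detected more of the receptors than the vehicle pituitary arrays. In the hypothalamus 36 of 78 receptor probes (46.2%) were detected on all 3 vehicle arrays, close to the 45.6% of all 22523 probes. In the pituitary 16 of 78 (20.5%) were, against 42.0% of all probes. The TCDD arrays detected 33 and 15 on all 3, against 45.5% and 40.8% of all probes. A set of 14 receptor probes was detected on all 3 vehicle arrays of both tissues (38.9% of all probes were), 15 on all 3 in the hypothalamus and on 0 in the pituitary (19.2%, against 3.61% of all probes), and 2, Chrna1 and Chrna10, the other way round (2.56%, against 1.24%). No array of the 12 detected 28 receptor probes, or 35.9%, against 41.0% of all probes. These shares describe probes, since a dim probe can miss a transcript that is there.

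**Figure D1:**
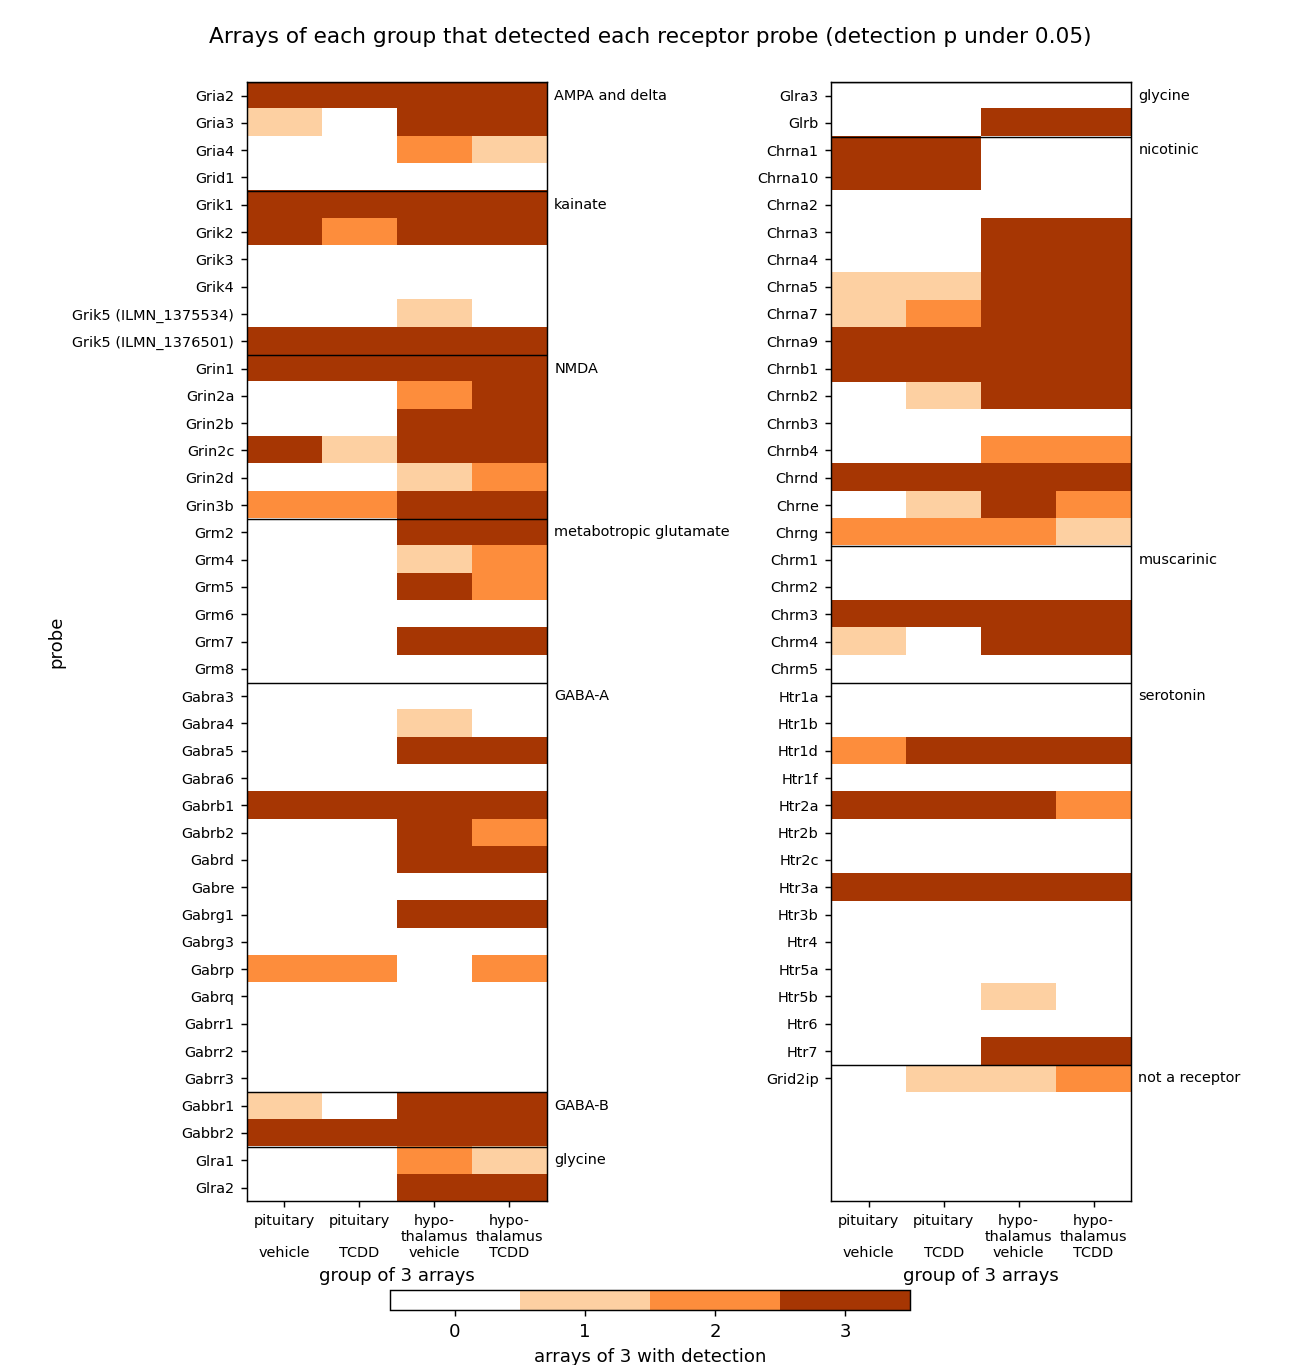
For each of the 78 probes (rows, ordered by family) the colour gives the number of arrays, from 0 to 3, that detected it in each of the 4 groups (columns). The hypothalamus columns hold 36 and 33 full cells and the pituitary columns 16 and 15.

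Detection followed families. Of 6 NMDA receptor probes, 4 were detected on all 3 vehicle hypothalamus arrays and the other 2, Grin2a and Grin2d, on 2 and on 1, while the pituitary detected Grin1 and Grin2c on all 3. Among 15 nicotinic probes, 9 were detected on all 3 vehicle arrays in the hypothalamus and 5 in the pituitary. That was the highest number of any family in the pituitary, but a smaller share than that of all probes. Nicotinic and GABA-A were the largest families, at 15 probes each. Of 15 GABA-A probes, 5 were detected on all 3 in the hypothalamus (Gabra5, Gabrb1, Gabrb2, Gabrd and Gabrg1) and only Gabrb1 in the pituitary, and 8 were detected on no array. The 14 serotonin receptor probes were the family with the most undetected members, with 9 on no array, among them Htr1a, Htr1b, Htr2c, Htr4 and Htr6. The 6 metabotropic glutamate probes and the 4 glycine receptor probes were detected on 0 of the 6 pituitary arrays.

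Vehicle hypothalamus was compared with vehicle pituitary to ask which receptors each tissue holds without exposure. Values are log2 intensities after all 12 arrays were normalized together, and a probe counts as called at a limma adjusted p under 0.05 over all probes tested. In bulk tissue, fewer cells of a type and less RNA per cell cannot be told apart. Of the 47 receptor probes tested, 30 (63.8%) were higher in the hypothalamus and 5 (10.6%) were higher in the pituitary, against 28.5% and 35.7% of all 12071 probes tested. With every probe of the array tested, so that no member was left out for being dim, 32 of 78 (41.0%) were higher in the hypothalamus and 6 (7.69%) in the pituitary, against 16.1% and 20.7% of all probes. The median difference, hypothalamus minus pituitary, was 0.77 over the receptor probes tested and -0.09 over all probes. Testing required detection on at least 3 arrays, so a probe could enter through 1 tissue alone. Of the receptor probes, 44 met this on the hypothalamus arrays and 21 on the pituitary arrays, so the filter in part sets the 0.77. No median was taken without the filter. Scaling to a common median moved the median of all probes to 0.04 and the share of all calls that were higher in the pituitary from 55.6% to 44.6%, and cyclic loess to 0.04 and 46.1%. The 5 receptor probes higher in the pituitary were the same under these scalings.

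**Figure D2:**
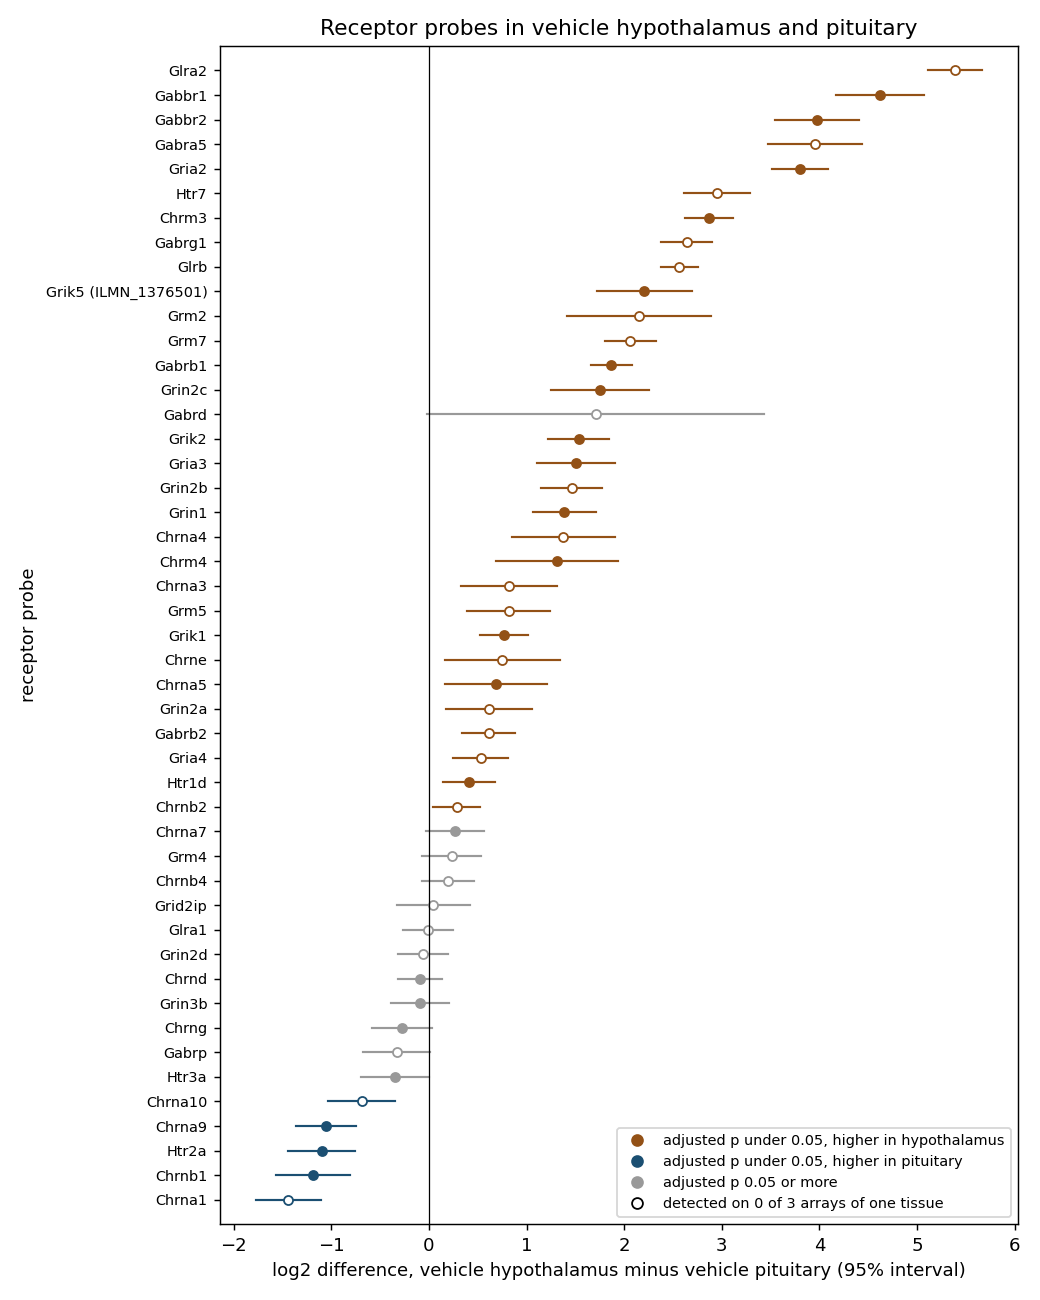
Points give the log2 difference, vehicle hypothalamus minus vehicle pituitary, of the 47 receptor probes tested (rows), with 95% intervals from the limma fit. Colours mark 30 probes called higher in the hypothalamus, 5 called higher in the pituitary and the rest, and open points mark probes detected on 0 of 3 vehicle arrays of 1 tissue, where the fitted value is not a measured fold.

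Among ionotropic glutamate receptors, every called probe was higher in the hypothalamus. Gria2, the AMPA receptor subunit that sets calcium permeability, read 7.59, 7.28 and 7.64 on the vehicle pituitary arrays and 11.44, 11.15 and 11.32 on the vehicle hypothalamus arrays, a 13.9-fold difference (3.80 on the log2 scale with SE 0.13, adjusted p = 1.16e-10 from limma). It was well detected in both tissues, whereas Gria3, another AMPA subunit, was detected on 1 of 3 vehicle pituitary arrays and was 2.85-fold higher in the hypothalamus. Gria4 was called higher as well, but only 2 of the 3 vehicle hypothalamus arrays detected it and its level allows no lower bound on the fold.

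All 3 kainate receptor probes that were tested were detected in both tissues and called. Grik1, the GluK1 subunit, had close levels in the tissues, at 6.56, 6.63 and 6.46 in the pituitary and 7.29, 7.40 and 7.28 in the hypothalamus, a 1.71-fold difference (adjusted p = 6.19e-05). Grik2, the GluK2 subunit, was at 5.85, 5.78 and 6.26 in the pituitary and 7.61, 7.37 and 7.52 in the hypothalamus, 2.89-fold higher (adjusted p = 1.15e-06). The subunit GluK5, which needs a partner such as GluK1 or GluK2 to form a channel, is coded by Grik5. Its brighter probe, ILMN_1376501, read 6.67, 6.85 and 6.83 against 9.59, 8.95 and 8.44, 4.62-fold higher in the hypothalamus (adjusted p = 2.58e-06). The other Grik5 probe, ILMN_1375534, was detected on 1 of the 12 arrays and was not tested, so the 2 probes of this gene disagree. Grik3 and Grik4 were detected on no array.

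The obligatory NMDA receptor subunit, Grin1, was at 9.74, 9.71 and 9.72 in the pituitary and read 11.33, 11.17 and 10.83 in the hypothalamus. It was 2.61-fold higher there (log2 difference 1.39, SE 0.15, adjusted p = 3.96e-06). Grin2c, a glutamate-binding partner of Grin1, was at 5.93, 5.81 and 5.53 in the pituitary and 7.93, 7.51 and 7.09 in the hypothalamus, 3.36-fold higher (adjusted p = 2.54e-05). Grin2b, the partner known for slow-closing channels, was not detected in the pituitary and was at least 1.57-fold higher in the hypothalamus (adjusted p = 1.65e-06, measured means 4.67 and 6.13). Here and below, "at least" sets the mean of the brighter tissue against the lowest detected signal on the arrays of the tissue in which no array detected the probe. Grin2a was called, but 0 of 3 vehicle pituitary and 2 of 3 vehicle hypothalamus arrays detected it. Its level allows no lower bound on the fold. The call was lost with array weights (limma adjusted p = 0.0559) and without vehicle pituitary array 2 (adjusted p = 0.0504). It was also lost without vehicle hypothalamus array 1, where the fitted difference went from 0.62 to 0.34 (adjusted p = 0.0602). Grin3b and Grin2d did not pass the test.

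Of the metabotropic glutamate receptors, 3 were called, all higher in the hypothalamus. Grm2, an inhibitory receptor of the group II class, was at least 2.53-fold higher (adjusted p = 0.000115, measured means 4.67 and 6.82), and Grm7, a presynaptic group III receptor, at least 2.54-fold (adjusted p = 1.20e-08, means 4.76 and 6.83). Grm5, which couples to phospholipase C, was at least 1.24-fold higher (adjusted p = 0.00259). Grm4 did not pass the test.

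The GABA-B receptor works as a pair in which Gabbr1 binds GABA and Gabbr2 engages the G protein, and the probes of the pair differed in where they were detected. In the pituitary Gabbr2 was detected on all 3 vehicle arrays, at 7.35, 6.98 and 7.73, while Gabbr1 was detected on 1 of 3, at 5.12, 4.93 and 5.79. In the hypothalamus both were detected on every array: Gabbr2 was at 11.46, 11.35 and 11.18, and Gabbr1 at 9.99, 10.10 and 9.61. The difference was 15.7-fold for Gabbr2 (log2 3.98, SE 0.20, adjusted p = 2.85e-09) and, as fitted, 24.6-fold for Gabbr1 (log2 4.62, SE 0.21, adjusted p = 1.25e-09), whose fold is uncertain because only 1 of the 3 vehicle pituitary arrays detected it. The level of a probe is not compared with that of another probe, so these values do not give the ratio of the pair.

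Among GABA-A subunits, Gabrb1 stood out as the member that every array detected. It read 9.37, 9.27 and 9.47 in vehicle pituitary and 11.17, 11.29 and 11.25 in vehicle hypothalamus, 3.65-fold higher (log2 difference 1.87, SE 0.10, adjusted p = 4.25e-09). The probes for Gabra3, Gabra4, Gabra5 and Gabra6, which code for alpha subunits, were detected on no pituitary array. Gabra5, a subunit of receptors outside the synapse, was at 8.47, 8.69 and 9.39 in the hypothalamus and undetected in the pituitary, at least 10.3-fold higher (adjusted p = 9.42e-09, means 4.90 and 8.85). Gabrg1, a gamma subunit, was at 7.64, 7.66 and 7.98 in vehicle hypothalamus, at least 4.83-fold higher (adjusted p = 1.25e-09, means 5.12 and 7.76), and Gabrb2 at least 1.04-fold (adjusted p = 0.000845), a bound that leaves its size almost unknown. Gabrp, found on 2 of 3 vehicle pituitary arrays and on 0 of 3 vehicle hypothalamus arrays, did not pass the test (adjusted p = 0.0837).

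Gabrd, the delta subunit of extrasynaptic receptors, did not pass the test although it was detected on all 6 hypothalamus arrays and on no pituitary array (log2 difference 1.71, SE 0.79, adjusted p = 0.0776). Its levels in vehicle hypothalamus were 9.07, 5.83 and 6.35, so array 1 alone was bright. With TCDD they were 9.15, 8.38 and 5.99, so arrays 1 and 2 were bright. Without vehicle array 1 the tissue difference was 0.71 (adjusted p = 0.362).

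Glycine receptor probes were detected on no pituitary array. Glra2, the alpha2 subunit, read 10.02, 10.45 and 10.42 in vehicle hypothalamus and was undetected in the pituitary, at least 28.1-fold higher (adjusted p = 5.18e-12, means 4.91 and 10.30). The beta subunit gene Glrb, whose product anchors the receptor to gephyrin, was at 7.26, 7.44 and 7.27 in the hypothalamus, at least 3.57-fold higher (adjusted p = 9.64e-11, means 4.76 and 7.32). Glra1, detected on 2 of 3 vehicle hypothalamus arrays, did not pass the test, and Glra3 was detected on no array. In the RefSeq gene table Glrb is the next receptor gene to Gria2 on chromosome 2.

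Nicotinic receptors ran both ways, with 5 of 13 tested probes higher in the hypothalamus and 4 higher in the pituitary. Of all 12071 probes tested, 28.5% and 35.7% were, so a split both ways is not read as a trait of this family. The 4 were Chrna1, Chrnb1, Chrna9 and Chrna10. Chrna1, the acetylcholine-binding alpha subunit of the muscle receptor, read 6.44, 6.05 and 6.30 on the vehicle pituitary arrays and was detected on 0 of 6 hypothalamus arrays, at least 1.91-fold higher in the pituitary (adjusted p = 3.27e-06, means 6.26 and 4.82). Its muscle partner Chrnb1 read 7.83, 7.26 and 7.64 in the pituitary and 6.10, 6.42 and 6.66 in the hypothalamus, 2.27-fold higher in the pituitary (adjusted p = 6.24e-05). Neither pair of groups overlapped.

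The subunits of the hair cell receptor, alpha9 and alpha10, were also both higher in the pituitary. Chrna9 was detected in both tissues, at 6.74, 6.26 and 6.67 against 5.45, 5.69 and 5.36, a 2.08-fold difference (adjusted p = 3.28e-05). Chrna10 was detected in the pituitary only, at 5.81, 5.70 and 6.07, at least 1.45-fold higher (adjusted p = 0.00202, means 5.86 and 5.17). All 4 probes stayed called in every alternative run, with adjusted p up to 0.0114.

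The remaining muscle-type subunits gave no such difference between the vehicle groups. Chrnd, the delta subunit, was detected on all 12 arrays, at 6.20, 6.24 and 6.32 in vehicle pituitary and 6.17, 6.05 and 6.27 in vehicle hypothalamus (log2 difference -0.09, adjusted p = 0.452). The sign of this difference turned to 0.07 under median scaling and 0.09 under cyclic loess. In the contrast of the TCDD arrays Chrnd was called higher in the pituitary (-0.36, limma adjusted p = 0.00737). Chrng, the fetal gamma subunit, was detected on 2 of 3 vehicle arrays in each tissue and did not pass the test. Chrne, the adult epsilon subunit, was undetected in vehicle pituitary and was called at least 1.30-fold higher in vehicle hypothalamus (adjusted p = 0.0273). That call was lost with all probes tested, without any of 4 single vehicle arrays (pituitary 1 and 2, hypothalamus 2 and 3; adjusted p from 0.0642 to 0.0937) and in the contrast of the TCDD arrays (adjusted p = 0.665).

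Skeletal muscle markers were listed after these values had been seen, to show what moved with the muscle-type subunits. Of 14 with a probe, Ckm, Myh2, Myh4, Mb, Actn3, Myod1 and Myog were detected on 0 of the 12 arrays. Acta1, Myl1, Tnnc2, Myh7 and Des were detected on all 12, and 6 or 7 of the 14 were detected per array. The summed intensity of the 14 ranged from 1324 to 1462 in vehicle pituitary and from 1835 to 2462 in vehicle hypothalamus. Of the 7 that were tested, 5 were called higher in the hypothalamus and 1, Tnni2, a troponin of fast muscle, was called higher in the pituitary, at 5.92, 6.29 and 6.42 against 5.15, 5.56 and 5.35 (adjusted p = 0.000201). The part of muscle tissue in the values of the nicotinic subunits was not tested.

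**Figure D3:**
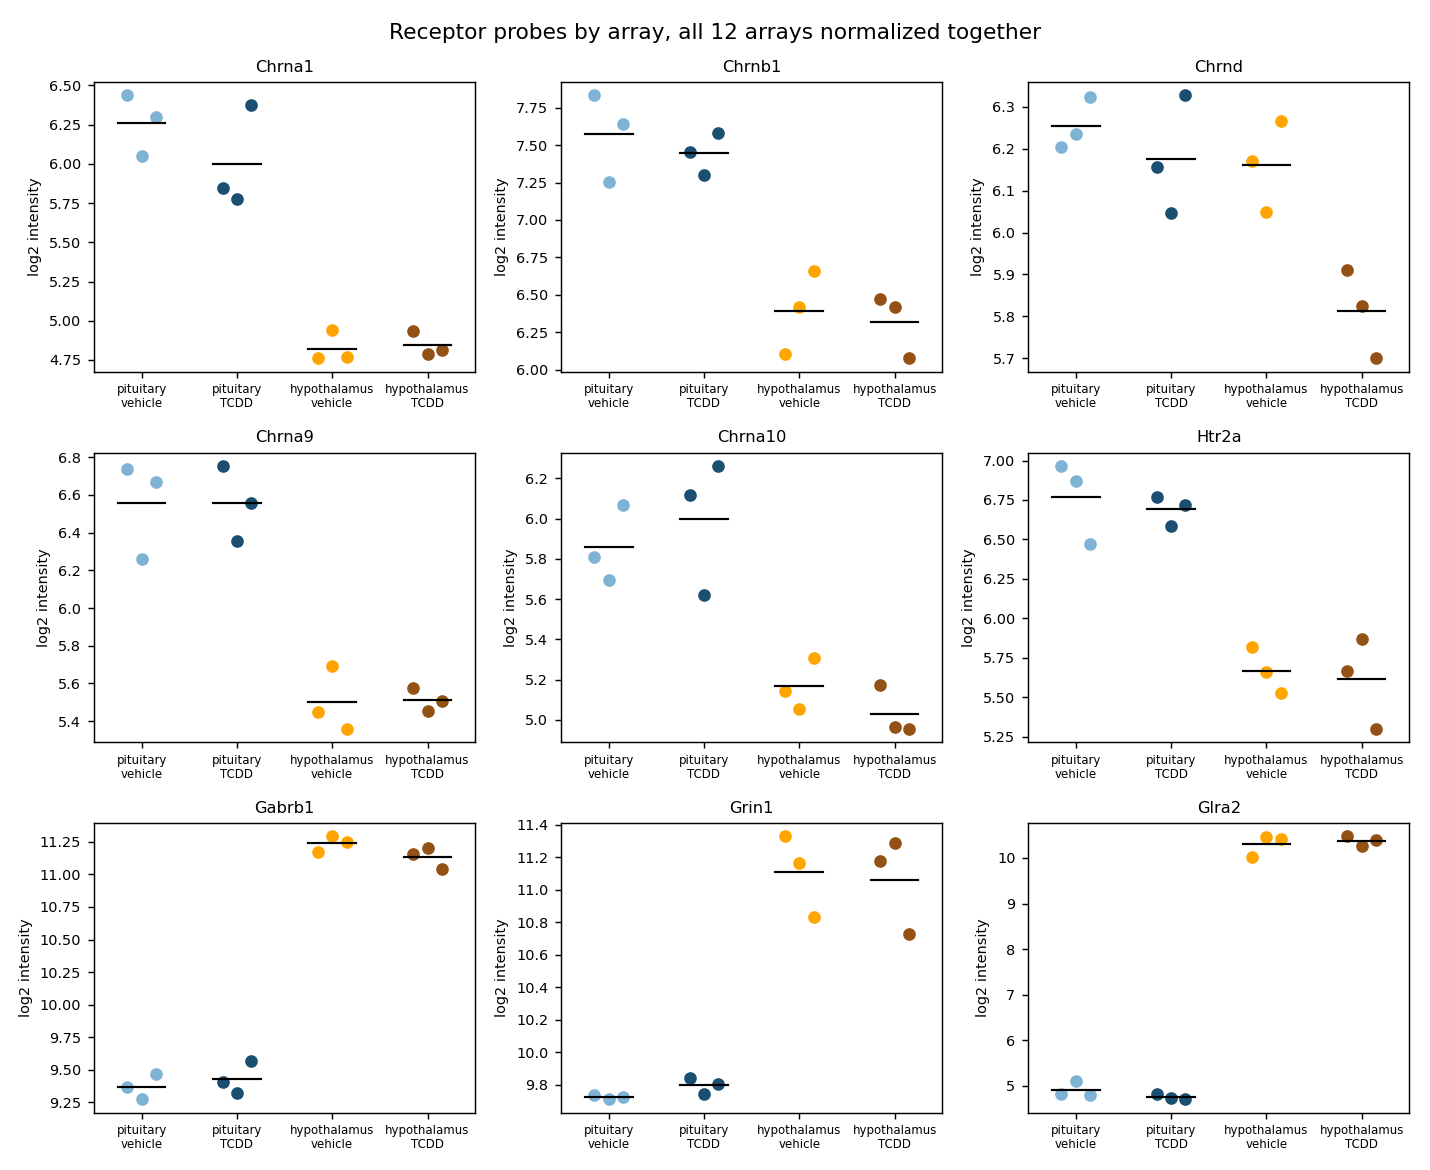
Log2 intensity of 9 receptor probes on each of the 12 arrays (points), with the mean of each group of 3 (line); each panel has its own axis. Chrna1, Chrnb1, Chrna9, Chrna10 and Htr2a lie higher on all pituitary arrays than on all hypothalamus arrays, Chrnd does not separate the vehicle groups, and Gabrb1, Grin1 and Glra2 lie higher on all hypothalamus arrays.

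The start regions of the 5 muscle-type subunit genes are shown because their members lie on both sides of the tissue contrast. They come from NCBI RefSeq on assembly GRCr8, which held a start region for 59 of the 76 receptor genes; the array files name no genome build. Each is the 150 bases before the annotated gene start, read 5′ to 3′ on the gene's strand, with every CAGCTG, a palindromic E-box that muscle regulatory factors are known to bind, in capitals. This motif was chosen after the tissue values had been seen.
Chrna1, chr3:78877354-78877503, minus strand: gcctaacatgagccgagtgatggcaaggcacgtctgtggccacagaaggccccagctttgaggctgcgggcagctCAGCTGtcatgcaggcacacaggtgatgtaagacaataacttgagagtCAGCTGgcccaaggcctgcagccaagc
Chrnb1, chr10:55015108-55015257, minus strand: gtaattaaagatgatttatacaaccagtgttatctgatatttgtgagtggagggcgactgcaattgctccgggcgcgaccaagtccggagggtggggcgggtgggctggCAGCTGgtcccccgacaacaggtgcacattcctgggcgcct
Chrnd, chr9:95310166-95310315, plus strand: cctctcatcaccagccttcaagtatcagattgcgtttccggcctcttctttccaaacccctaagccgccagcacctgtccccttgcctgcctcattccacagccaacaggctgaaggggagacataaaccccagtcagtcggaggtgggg
Chrne, chr10:55834155-55834304, minus strand: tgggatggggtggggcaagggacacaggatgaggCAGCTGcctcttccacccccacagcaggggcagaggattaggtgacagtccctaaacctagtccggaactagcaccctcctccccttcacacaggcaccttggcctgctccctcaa
Chrng, chr9:95325834-95325983, plus strand: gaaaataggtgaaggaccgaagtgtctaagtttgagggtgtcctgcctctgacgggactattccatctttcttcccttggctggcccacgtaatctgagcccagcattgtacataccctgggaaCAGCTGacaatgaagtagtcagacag

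Over the 250 bases before the start, CAGCTG was found in 4 of these 5 genes (80.0%), in 0 of the 8 other nicotinic genes with a start region, in 11 of the 59 receptor genes (18.6%) and in 3274 of all 27457 genes (11.9%). The first base of the motif lay 75 and 27 bases before the start of Chrna1, 41 before Chrnb1, 116 before Chrne and 26 before Chrng. A match is a description of these letters and not evidence of binding. Chrnd and Chrng are neighbours on chromosome 9.

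The neuronal nicotinic subunits were higher in the hypothalamus or did not differ beyond the threshold. Chrna4, which with Chrnb2 forms the main high-affinity nicotine receptor of the brain, was undetected in the pituitary and at 6.59, 6.06 and 6.24 in vehicle hypothalamus, at least 1.76-fold higher (adjusted p = 0.00029). Chrnb2 was called by a narrow margin (log2 difference 0.28, adjusted p = 0.038). Its call was lost with the trended and robust variance, with no background correction and without any of 5 single arrays, and on the TCDD arrays its difference was -0.11. Chrna3, Chrna5 and Chrnb4 lie side by side on chromosome 8. Of these, Chrna3 was at least 1.16-fold higher in the hypothalamus (adjusted p = 0.00658). Chrna5 was called at 1.61-fold (adjusted p = 0.024) with 1 bright array, vehicle hypothalamus 1 at 6.87 against 5.92 and 5.64, and its log2 difference of 0.69 went to 0.32 without that array, where the call was lost (adjusted p = 0.0682), as it was without vehicle pituitary array 1 or 2 (adjusted p = 0.0637 and 0.0723) and in the contrast of the TCDD arrays (0.16, adjusted p = 0.575). It was detected on 1 of 3 vehicle pituitary arrays. Chrnb4 and Chrna7, the subunit of fast calcium-permeable receptors, did not pass the test.

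Of the muscarinic receptors, Chrm3, which couples to phospholipase C, was detected on all 12 arrays. It read 6.87, 7.02 and 6.83 in vehicle pituitary and 9.91, 9.68 and 9.72 in vehicle hypothalamus, 7.29-fold higher (log2 difference 2.87, SE 0.11, adjusted p = 3.26e-10). Chrm4, which inhibits adenylyl cyclase, was 2.48-fold higher in the hypothalamus (adjusted p = 0.00155) and detected on 1 of 3 vehicle pituitary arrays, with 7.61 on vehicle array 1 against 6.22 and 6.27 on arrays 2 and 3; without array 1 the log2 difference was 0.85 in place of 1.31 and the call held. Chrm1, Chrm2 and Chrm5 were detected on no array.

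Serotonin receptors also ran both ways. Htr2a, which couples to phospholipase C, was higher in the pituitary, at 6.97, 6.87 and 6.47 against 5.82, 5.66 and 5.53 in the hypothalamus, a 2.14-fold difference with no overlap (adjusted p = 5.45e-05). Htr7, which stimulates adenylyl cyclase, was detected on all hypothalamus arrays and on none of the pituitary, at 7.63, 8.02 and 8.33 in vehicle hypothalamus, at least 5.69-fold higher (adjusted p = 5.28e-09, means 5.04 and 7.99). Htr3a, the serotonin-gated channel subunit, was detected on all 12 arrays, at 7.90, 8.13 and 7.97 in vehicle pituitary and 7.42, 7.58 and 7.96 in vehicle hypothalamus. Its groups overlapped, and the difference did not pass the test (log2 -0.35, adjusted p = 0.0782) except with array weights (adjusted p = 0.0399) or without vehicle hypothalamus array 3 (log2 -0.50, adjusted p = 0.0158). Its neighbour and channel partner Htr3b was detected on no array. Htr1d was called at 1.33-fold higher in the hypothalamus (adjusted p = 0.0107), a call lost on the TCDD arrays (adjusted p = 0.449).

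The genes that make, move and anchor the transmitters and receptors were described from 5 lists. Of all 12071 probes tested, 28.5% were called higher in the hypothalamus and 35.7% in the pituitary. As for the receptors, a gene could enter the test through detection in 1 tissue alone. In the tissue contrast 5 of 6 tested glutamate genes were higher in the hypothalamus, among them the vesicular transporter Slc17a6, at 7.83-fold (adjusted p = 1.11e-08), which every pituitary array also detected. Of 8 GABA and glycine genes, 7 were higher in the hypothalamus, led by the GABA-synthesising enzyme Gad1 at no less than 132-fold (adjusted p = 4.99e-14). The 1 acetylcholine gene tested, the vesicular transporter Slc18a3, was 1.99-fold higher in the hypothalamus, with detection on 1 of 3 vehicle pituitary arrays. Of 4 serotonin genes, Maob and Slc18a2 were higher in the hypothalamus, and Tph2, the neuronal form of the rate-limiting enzyme of serotonin synthesis, was higher in the pituitary. Tph2 read 7.92, 7.38 and 7.60 on the vehicle pituitary arrays and was detected on no hypothalamus array, at least 4.94-fold higher in the pituitary (adjusted p = 9.68e-10, means 7.63 and 4.72). Of 28 scaffold and auxiliary subunit genes with a probe, 8 were detected on all 3 vehicle arrays in the hypothalamus and on 0 in the pituitary. Among the 23 tested, 18 were higher in the hypothalamus, such as Cacng3, an AMPA receptor auxiliary subunit, at least 4.28-fold. The 3 that were higher in the pituitary were Homer2 (2.55-fold), Gabarap (1.94-fold) and Pick1 (1.26-fold).

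Exposed and vehicle arrays were compared separately in the pituitary and the hypothalamus, with each tissue's 6 arrays normalized on their own. The question was which receptors differed on postnatal day 70 after the dams were dosed on gestation day 15. In the pituitary, 0 of 21 receptor probes tested were called, as were 0 of all 10251 probes (0%). At an unadjusted p under 0.05 there was 1 receptor probe, Grik5, against 6.02% of all probes, and in 2 of 21 the groups did not overlap (Grik5 and Grin1), against 11.1% of all probes. The differences, TCDD minus vehicle, ran from -0.26 to 0.27 on the log2 scale, with a median of -0.000215 over the 21 and 0.00083 over all probes.

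Grik5 (ILMN_1376501) was at 6.58, 6.75 and 6.74 on the vehicle pituitary arrays and 6.89, 7.04 and 6.95 on the TCDD arrays. It was higher on all 3 TCDD arrays by 0.27 (SE 0.09, limma adjusted p = 0.77). Grik2, the other kainate subunit with a large difference, was at 5.82, 5.76 and 6.18 against 5.84, 5.69 and 5.45, a log2 difference of -0.26 with groups that overlapped (adjusted p = 0.867). Gria2 was at 7.50, 7.19 and 7.55 with vehicle and 7.72, 7.46 and 7.68 with TCDD (0.21, adjusted p = 0.873).

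Chrna1 was at 6.35, 5.99 and 6.22 with vehicle and 5.81, 5.75 and 6.29 with TCDD (-0.24, adjusted p = 0.90), so the 2 lowest values were TCDD arrays and the third lay among the vehicle arrays. Grin2c read 5.89, 5.78 and 5.54 with vehicle and 5.40, 5.84 and 5.42 with TCDD (-0.18, adjusted p = 0.91), and the arrays that detected it went from 3 to 1. The remaining members detected on all vehicle pituitary arrays differed less: Grik1 by 0.10, Grin1 by 0.08, Gabrb1 by 0.06, Gabbr2 by -0.08, Chrnb1 by -0.13, Chrnd by -0.07, Chrna10 by 0.13, Htr2a by -0.08 and Htr3a by -0.11, while the means of Chrm3 and Chrna9 were nearly the same. For Chrm3 the 95% interval of the difference ran from -0.22 to 0.22, and for Grin1 from -0.11 to 0.26. A p that misses the threshold does not show that the groups are alike, and these intervals state how large a difference remains possible.

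**Figure D4:**
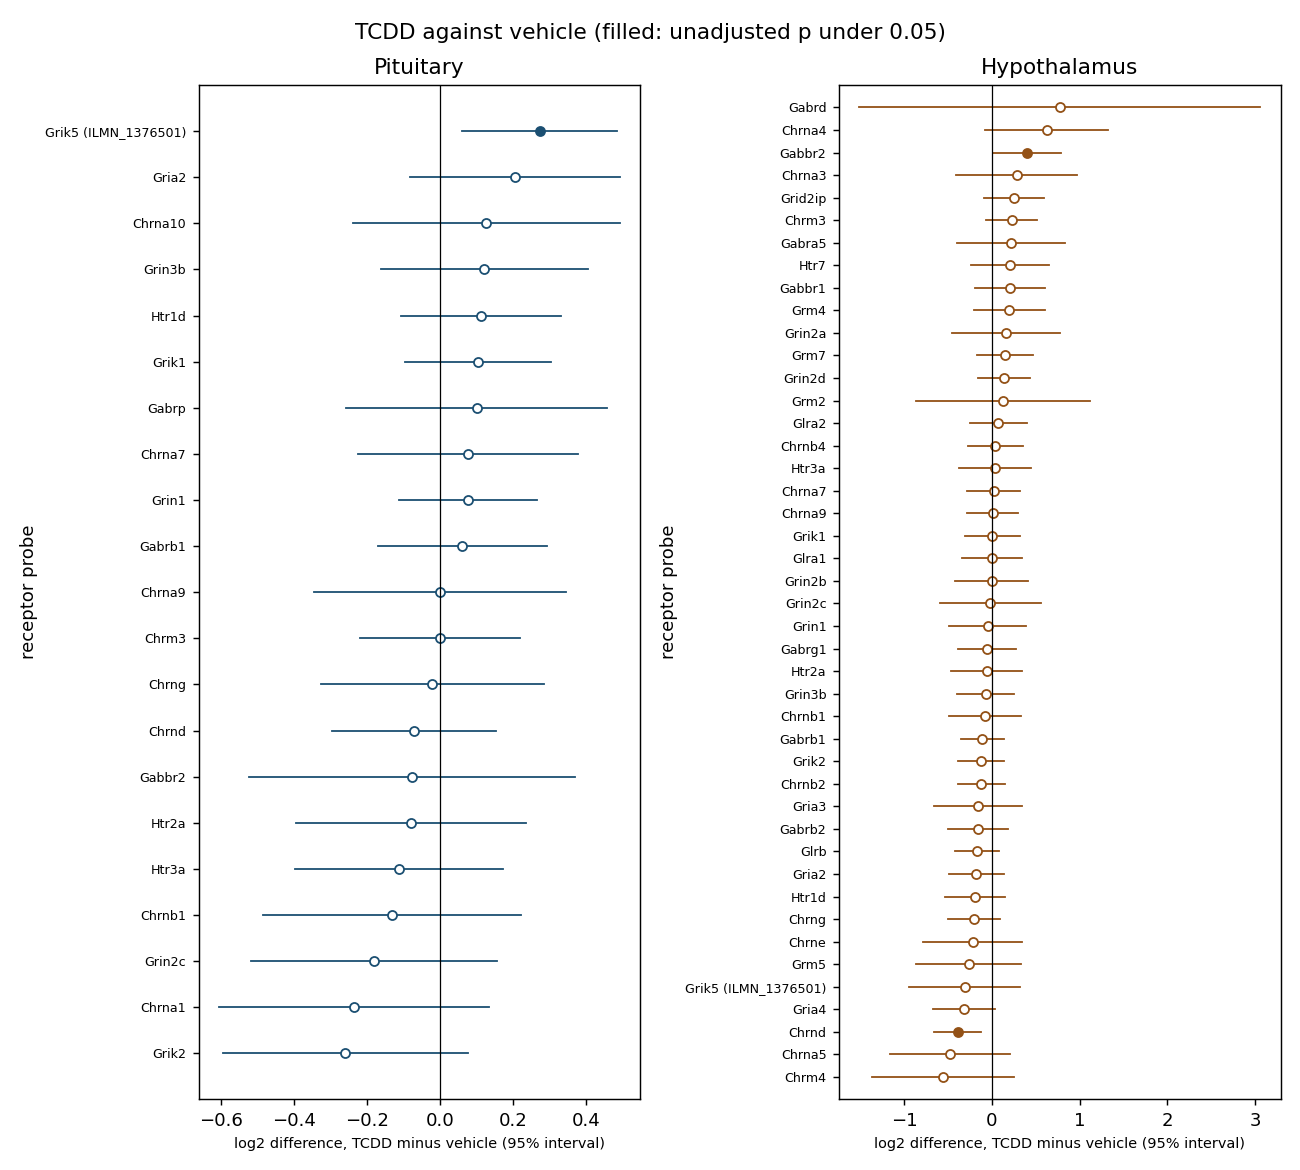
Points give the log2 difference, TCDD minus vehicle, of the 21 receptor probes tested in the pituitary (left) and the 44 tested in the hypothalamus (right), with 95% intervals; the panels have different axes. Filled points, 1 and 2 in number, have an unadjusted p under 0.05, and no adjusted p is under 0.05.

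In the hypothalamus, 0 of 44 receptor probes tested were called, and 1 of all 11246 probes was (0.00889%), a probe with no gene name here. At an unadjusted p under 0.05 there were 2 receptor probes, Chrnd and Gabbr2, against 5.39% of all probes, and in 2 of 44 the groups did not overlap (Chrnd and Glrb), against 10.9%. The differences ran from -0.56 to 0.77, with a median of -0.01 over the 44 and 0.0031 over all probes.

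Chrnd was at 6.24, 6.11 and 6.34 on the vehicle hypothalamus arrays and 5.95, 5.86 and 5.72 on the TCDD arrays. All 3 TCDD arrays were lower, by 0.39 on average (log2 difference -0.39, SE 0.12, limma adjusted p = 0.884). In the authors' normalized table the difference was -0.11. The lowest hypothalamus value there was 128.7, so the differences are not on like scales. In the pituitary the same probe differed by -0.07. Glrb was at 7.36, 7.53 and 7.36 with vehicle and 7.31, 7.15 and 7.27 with TCDD (-0.17, adjusted p = 0.884), and the gap between the groups was smaller than the spread within them.

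Gabbr2 was at 11.58, 11.46 and 11.28 with vehicle and 12.08, 11.93 and 11.51 with TCDD. TCDD arrays 1 and 2 lay above all vehicle arrays and array 3 among them (0.40, SE 0.17, adjusted p = 0.884). Its GABA-B partner Gabbr1 differed by 0.21 (adjusted p = 0.896). Chrna4 was at 6.68, 6.12 and 6.32 with vehicle and 7.31, 7.43 and 6.25 with TCDD, so again TCDD arrays 1 and 2 were high and array 3 was not (0.62, SE 0.30, adjusted p = 0.884). Gria4 was at 5.42, 5.27 and 5.64 against 5.32, 5.21 and 4.87 (-0.31, adjusted p = 0.884), and Chrm3 at 10.00, 9.78 and 9.81 against 10.19, 10.19 and 9.88 (0.22, adjusted p = 0.884).

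Several of these values moved with markers of regions next to the hypothalamus. The mean log2 intensity of 6 thalamus markers was 7.84, 7.59 and 7.85 on the vehicle arrays and 9.17, 8.77 and 7.88 on the TCDD arrays. All 6 were higher with TCDD, 3 of them at an unadjusted p under 0.05 and 0 called, with summed intensities of 6006 to 9241 and 9814 to 12827, and 3 to 6 of the 6 were detected on each array. TCDD arrays 1 and 2, which carried these markers most, were the arrays on which Chrna4 and Gabbr2 were high. Gabrd had the largest spread of the receptor probes in the hypothalamus, with a pooled SD within groups of 1.72, at the 99.99th percentile of the 11246 probes tested, whose median was 0.16. It was bright on TCDD arrays 1 and 2 and on vehicle array 1, and its TCDD difference was 0.77 (SE 0.99, adjusted p = 0.921).

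Vehicle array 1 was the array on which the 9 striatum, septum and cortex markers stood highest, with summed intensities of 9634 to 25052 over the vehicle arrays and 8682 to 10515 over the TCDD arrays; every array detected all 9. Of the 44 receptor probes tested, 13 were at their highest of the 6 hypothalamus arrays on this array: Gria2, Gria3, Grik2, Grik5, Grin1, Grin2a, Grin2b, Grin2c, Grm5, Gabrb2, Chrm4, Chrna5 and Htr1d. The same count was not made over all probes, so 13 of 44 is not read as a trait of the receptors. All 13 were called in the tissue contrast, and 11 were without this array, with differences of 0.26 to 3.72, while Grin2a and Chrna5 were not. For Chrm4, at 7.70, 6.30 and 6.35 with vehicle and 5.98, 6.24 and 6.48 with TCDD, the TCDD difference was -0.56 (SE 0.35, adjusted p = 0.884), and it was -0.10 without vehicle array 1. For Gabrd it was 1.78 without that array (adjusted p = 0.961). Without vehicle array 1 and TCDD arrays 1 and 2 together, 0 receptor probes were called and 58 of all probes were, in a fit with 2 vehicle arrays and 1 TCDD array whose lone array is assumed to vary like the others. In that fit the difference of Chrna4 was 0.03, that of Gabbr2 was 0.14 and that of Chrnd was -0.50. The arrays left out include those on which Chrna4 and Gabbr2 were high, so their lower values there follow from the choice of arrays. The part of the region markers in the receptor differences was not tested.

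**Figure D5:**
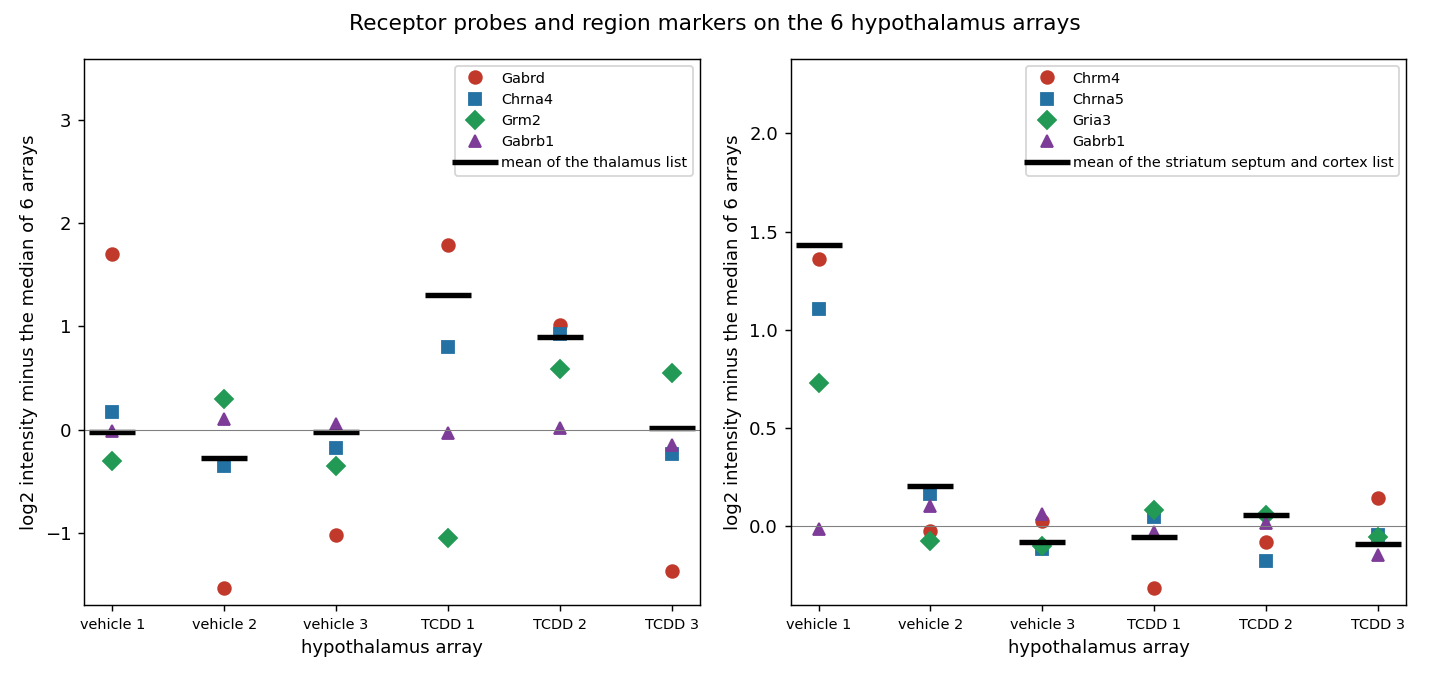
Log2 intensity of receptor probes (symbols) on the 6 hypothalamus arrays, each minus its own median over the 6, beside the mean of a marker list treated the same way (black bars): 6 thalamus markers on the left, 9 striatum, septum and cortex markers on the right. Gabrd and Chrna4 are high on TCDD arrays 1 and 2, Gabrd also on vehicle array 1, Grm2 does not follow the thalamus markers, Chrm4, Chrna5 and Gria3 are high on vehicle array 1, and Gabrb1, shown in both panels, is even across the arrays.

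Gabbr2 is the receptor gene of smallest unadjusted p in either TCDD fit whose start region holds the dioxin response core, GCGTG, which the aryl hydrocarbon receptor is known to bind with its partner. Its 150 bases before the start on GRCr8 are shown with the core in capitals.
Gabbr2, chr5:66083696-66083845, minus strand: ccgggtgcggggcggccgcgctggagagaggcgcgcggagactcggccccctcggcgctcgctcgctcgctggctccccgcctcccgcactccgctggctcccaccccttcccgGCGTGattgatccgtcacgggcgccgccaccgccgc

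The core, searched on both strands over 250 bases before the start, was present in 17 of 59 receptor genes (28.8%) and in 7459 of all 27457 genes (27.2%), so receptor genes held it at about the background share. In Gabbr2 its first base lay 36 bases before the start. Chrnd had no match, which says only that these letters are not in this window.

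The difference of the TCDD effect between the tissues was tested in a fit of all 12 arrays. Of 47 receptor probes, 0 were called, as were 0 of all 12071 probes (0%), and 1 receptor probe, Chrnb2, had an unadjusted p under 0.05, against 6.16% of all probes. Chrnb2 was at 5.25, 5.16 and 5.46 in vehicle pituitary and 5.70, 5.48 and 5.54 in TCDD pituitary, and at 5.41, 5.62 and 5.68 and then 5.45, 5.52 and 5.42 in the hypothalamus. The effect in the hypothalamus minus that in the pituitary was -0.39 (SE 0.15, adjusted p = 0.75), with detection on 0 of 3 vehicle and 1 of 3 TCDD pituitary arrays. The same difference was -0.37 for Gria2, -0.27 for Chrnd, 0.40 for Htr7 and -0.58 for Grik5 (ILMN_1376501), each with an adjusted p of 0.816.

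In the 5 lists of genes that handle the transmitters or anchor the receptors, 0 genes were called for TCDD in either tissue. The smallest unadjusted p values in the pituitary were those of Slc1a3, the glial glutamate transporter, at 9.71, 9.92 and 10.57 with vehicle and 10.45, 11.10 and 10.66 with TCDD on the scale of all 12 arrays (log2 difference 0.67 in the fit of the pituitary arrays, adjusted p = 0.77), and Dlgap4 (-0.27, adjusted p = 0.849). In the hypothalamus, Slc17a6 differed by 0.45 (adjusted p = 0.884) and is also in the thalamus list. The GABA-synthesising enzyme Gad2 differed by -0.37, Cacng4, an AMPA receptor auxiliary subunit, by -0.28 and Slc18a3 by -0.57, each with an adjusted p of 0.884. Among the hypothalamus arrays Gad2, Cacng4 and Slc18a3 were highest on vehicle array 1, where the striatum, septum and cortex markers stood highest too. Slc18a3 was at 6.93, 6.14 and 5.99 with vehicle and 5.63, 6.09 and 5.74 with TCDD on the scale of all 12 arrays. With single arrays left out, its difference ran from -0.77 to -0.28.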

How the data were processed

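The authors deposited, per the file headers, 1 signal intensity per probe and array, with no normalization across arrays, beside its detection p-value. The sources used here name no scanner software and no background step. A second table deposited by the authors held intensity normalized for each tissue, per the labels' series text, by a method not stated, and served as an alternative. Probes were named from the platform annotation (13793 with 1 symbol, 0 with several, 8730 unnamed), and all 78 receptor probes matched the RefSeq gene table of GRCr8.

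Signals were background-corrected with limma's nec from the detection p-values (offset 16), then quantile normalized as log2 values. Probes detected on at least 3 arrays of a fit were tested with limma 3.58.1 in R 4.3.3 (lmFit, eBayes, two-sided, Benjamini-Hochberg at 0.05 over all probes tested). TCDD was tested on each tissue's 6 arrays. The tissue contrast and the interaction used all 12 arrays in 4 groups. Folds of dim probes are pulled toward 1 by this offset, and 3 arrays per group limit the precision. The fits were tested on simulated data with planted log2 changes of 1 and 2. The TCDD fit recovered 89% and 99% of these in the pituitary and 71% and 97% in the hypothalamus. Smaller changes were not simulated, so this does not cover TCDD differences of the size seen for the receptors. Motifs were searched with Python 3.11.15.

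The receptor families and the gene lists were chosen with earlier results of these data known, although the rule for members matches symbols alone. The lists were 5 of transmitter handling and anchoring and 10 of tissue markers, with 163 entries of which 137 had a probe; 1 skeletal muscle list was added after values were seen. Array values were given for members detected on all vehicle pituitary arrays, members of unadjusted p under 0.05 or the 5 of smallest p in each TCDD fit, and up to 8 called members of largest fold per direction in the tissue contrast; each partner list contributed its 2 genes of smallest p to the TCDD fits. Some weak tissue calls and other genes with uneven arrays were named after their values were seen. The main fits did not pair arrays by the replicate numbers of the sample descriptions. In the pituitary, deviations from the group means correlated at 0.07, 0.18 and 0.07 for the same number and -0.13 to 0.04 for different numbers. In the hypothalamus they correlated at 0.11, 0.09 and 0.26 for the same number and -0.38 to 0.25 for different numbers. These values do not settle whether the numbers pair the arrays. The titles number samples otherwise, and vehicle and TCDD arrays of 1 tissue share only 2 of those numbers (0.18 and 0.07 in the pituitary, 0.25 and 0.13 in the hypothalamus). Protein sequences were not used here.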

Additional observations from a re-analysis of the deposited data

How the results depend on the processing

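Alternatives changed the background correction, the normalization, the filter, the variance model, array weights, probes per gene, the arrays fitted and single arrays left out. No receptor probe was called for TCDD in either tissue, or for the difference between tissues, under any of them; counts at an unadjusted p under 0.05 ran from 0 to 5 in the pituitary and from 1 to 6 in the hypothalamus. Receptor probes higher in the hypothalamus numbered 27 to 32 (26 to 31 with 1 array left out) and those higher in the pituitary 5 to 7. Probes detected on all vehicle arrays numbered 13 to 20 and 27 to 41. Signs turned for Chrnd in the tissue contrast (0.066 with median scaling, 0.088 with cyclic loess), for Chrnb2 on the TCDD arrays (-0.11), for Slc6a9 in the pituitary with single arrays left out (-0.245 to 0.057, the latter without vehicle array 3) and for Maoa in the hypothalamus (-0.012 to 0.166, the former without TCDD array 3); the cause was not tested. On the TCDD arrays Chrnd was called higher in the pituitary (-0.36, adjusted p = 0.00737), and Gria4 was not called (adjusted p = 0.0694). With the replicate block the Chrnb2 tissue call was lost (0.28, adjusted p = 0.0503), and no other receptor call was lost. The contrast of TCDD arrays, the fit without 3 hypothalamus arrays and the block of title codes were chosen after seeing the data. With the title codes as a random block (consensus correlation -0.14), 30 and 5 receptor probes were called in the tissue contrast and 0 for the difference between tissues. For the 28 receptor probes detected on no array, no difference could be read.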

Other observations

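The marker lists held 0 called genes for TCDD in either tissue. At an unadjusted p under 0.05 the pituitary fit held 3 of 9 striatum, septum and cortex markers (2 higher, 1 lower), 2 of 7 astrocyte markers (1 each way), 2 of 6 choroid plexus and meninges markers (both lower), 1 of 11 general neuronal markers, 1 of 3 oligodendrocyte markers, 1 of 6 neural lobe markers, 1 of 5 hypothalamic neuropeptide markers and 1 of 6 skeletal muscle markers (all higher), and 0 of 9 endocrine, 0 of 3 thalamus and 0 of 3 blood markers. In the hypothalamus fit it held 3 of 6 thalamus markers (all higher), 3 of 14 general neuronal markers (2 higher, 1 lower), 1 of 11 hypothalamic neuropeptide markers and 1 of 7 skeletal muscle markers (both lower), and 0 of 9 striatum, septum and cortex, 0 of 8 astrocyte, 0 of 8 oligodendrocyte, 0 of 7 neural lobe, 0 of 5 endocrine, 0 of 8 choroid plexus and meninges and 0 of 3 blood markers.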
